A study of Homo sapiens with 6 samples.

Results

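The genes described here are 50 mitotic genes, among them the transcription factor FOXM1, the proliferation marker MKI67, and mitotic cyclins, kinases, checkpoint, kinesin and kinetochore genes. They were chosen by gene symbol from their known roles, with earlier results of these data already known. Among the 23152 genes counted, 50 of 50 were found. The study asked which genes change when RNF112, a RING-type E3 ubiquitin ligase, is overexpressed in T24 cells, an established human bladder cancer (BLCA) line. Polyadenylated RNA was sequenced from 3 samples labelled vector (T24 with the empty control) and 3 labelled oeRNF112 (T24 with the RNF112 construct). All 6 came from T24 cells grown in the same medium with serum. A protocol deposited with the samples names siRNA transfection, while the group labels name vector and oeRNF112, and whether the sequenced cells were transiently transfected or a stable line is not given in the sources used here. Nothing states that the replicates came from separate cultures, so the p-values measure only the spread between these samples, which may be technical. With this design the effect of the construct and that of the RNF112 protein cannot be told apart.

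A cell that enters mitosis switches on a wave of late cell cycle genes. The transcription factors FOXM1 and MYBL2 act with the MuvB complex at their promoters, where a short element called CHR and CCAAT boxes recur, and the products reach a peak in G2 and mitosis. Cyclin B with CDK1, PLK1 and the Aurora kinases drive entry and spindle assembly, the kinetochore couples chromosomes to microtubules, the spindle checkpoint restrains CDC20 until every chromosome is attached, and the anaphase-promoting complex then marks securin and the cyclins for destruction. In bulk RNA a lower level of these genes can mean fewer cells in G2 and mitosis or less mRNA per such cell, and the counts cannot tell these apart. In bladder tumors, as in other tumors, these genes serve as markers of proliferation.

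The column totals lay between 40029547 and 41259569 counts. For RNF112 itself 27, 19 and 24 reads were counted with vector, and 29753, 36963 and 31712 with oeRNF112, as the labels have it. Reads from the construct cannot be told apart from those of the endogenous gene. Markers of epithelial cells (KRT8, KRT18, KRT19, KRT7, EPCAM and CDH1) summed to 141100 to 175442 counts in vector and 114690 to 133616 in oeRNF112, with KRT18 and KRT7 lower, EPCAM higher and CDH1 at no more than 1 count in any sample. The part of these differences in the results below was not tested. The 6 leukocyte markers summed to 140 to 162 counts in vector and 117 to 218 in oeRNF112, the 5 fibroblast markers to 265 to 372 and 420 to 450, and the 5 endothelial markers to 5 to 24 and 17 to 27. Of these 16 markers only 3 leukocyte, 2 fibroblast and 0 endothelial ones passed the filter on low counts and were tested. The fibroblast gene PDGFRA was called higher, at up to 29 counts, and no other tested marker was called. CPM (a count relative to library size, as edgeR gives it) was scaled with edgeR's TMM factors, and a gene was called different at an adjusted p under 0.05 from edgeR's quasi-likelihood test with Benjamini-Hochberg adjustment over the 14467 genes tested.

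The samples of 1 group differed from each other in a way that followed gene length, in the mitotic genes and over all genes tested. The gene length was the one by which the deposited RPKM values had been divided. Vector replicate 2 held more of the long genes than vector replicate 3, and oeRNF112 replicate 3 more than oeRNF112 replicate 2. Across the 50 genes, the difference in log2 CPM between vector replicates 2 and 3 had a Pearson's r of 0.753 and a Spearman's rho of 0.738 with the logarithm of gene length, and the difference between oeRNF112 replicates 3 and 2 had 0.804 and 0.760. The deviations of single samples from their group mean followed length over all 14467 genes too, with a Spearman's rho of 0.566 and -0.512 for vector replicates 2 and 3 and of -0.506 and 0.526 for oeRNF112 replicates 2 and 3. These are descriptions across genes that share the same libraries. Of the 11 genes between 4838 and 13228 bases, 9 were higher in vector replicate 2 than in replicate 3. Likewise 9 were higher in oeRNF112 replicate 3 than in replicate 2. BUB3 and MAD2L1 were the exceptions in both groups. MKI67, the longest at 13228 bases, had 287, 414 and 257 CPM in the vector samples and 289, 250 and 393 CPM in the oeRNF112 samples. Its 2 highest values came 1 from each group.

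**Figure D1:**
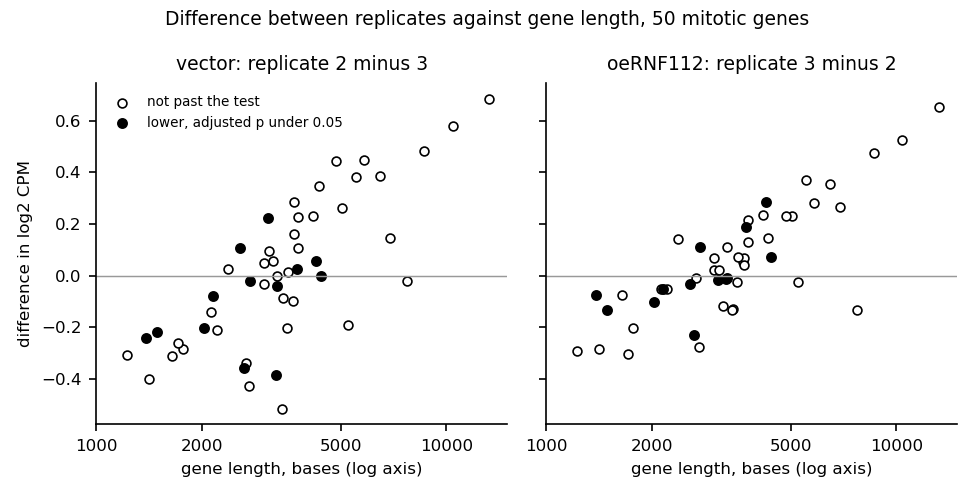
Each point is 1 of the 50 mitotic genes, with its length in bases on a log axis and the difference in log2 CPM between 2 replicates of the same group on the vertical axis (left, vector replicate 2 minus 3, and right, oeRNF112 replicate 3 minus 2). In both panels the differences climb with length, up to 0.686 and 0.653 for MKI67, and the filled points, the genes called lower in oeRNF112, all lie at 4388 bases or below.

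Of the 50 mitotic genes, all passed the filter on low counts, and 13 were lower and 0 higher in oeRNF112 than in vector (26% of the 50 called). Over all genes tested 18.1% were called, 8.14% lower and 9.97% higher. The 13 genes were FOXM1, CCNA2, CCNB1, CCNB2, CCNF, CDC25C, PLK1, BIRC5, CENPA, KIF20A, KIF4A, DLGAP5 and CDCA3. At an unadjusted p under 0.05, 24 were lower and 0 higher, and DESeq2 and limma also called 0 higher. The share of all genes past this unadjusted threshold was not computed, here or for the lists below. Over the 50 genes the log2 fold change had a median of -0.22, against 0.00267 over all genes tested, and 44 of the 50 fitted values lay below 0. Their medians relative to the vector mean were 0.03, -0.01 and 0.003 on the log2 scale with vector and -0.17, -0.23 and -0.18 with oeRNF112. In 24 of the 50 genes all 3 oeRNF112 samples lay below all 3 vector samples, and in 0 all lay above, against 17.9% and 18.9% of all genes tested. An oeRNF112 sample was the lowest of the 6 in 41 of the 50 genes, namely 7 in replicate 1, 17 in replicate 2 and 17 in replicate 3. This last count was not made over all genes tested, and it describes the same shift as the counts before it.

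The falls were of modest size, between 0.28 and 0.77 on the log2 scale for the 13 genes. When library totals replaced the TMM factors, which moves the median of all genes to 0.10, 6 mitotic genes were called lower and 0 higher, and 75.4% of all calls were higher genes instead of 55%. Over all genes tested, 18.5% were called with library totals, 4.56% lower. The median of the 50 genes stood 0.23 below that of all genes under both scalings. Leaving out 1 sample gave 4 lower genes without vector replicate 1, 5 without oeRNF112 replicate 1, 6 without oeRNF112 replicate 2, 7 without oeRNF112 replicate 3, 8 without vector replicate 3 and 18 without vector replicate 2. In the same order, 7.18%, 8.59%, 15.9%, 9.84%, 13.1% and 23% of all genes tested were called. Those called lower were 2.43%, 2.93%, 6.86%, 3.63%, 5.2% and 10.5%. Only KIF20A, CCNB2, PLK1 and CENPA, of the 13, kept their call in each of these 6 fits. The 13 genes were between 1389 and 4388 bases long, and 0 of the 11 longer genes were called. With the trend with gene length removed in each sample, a fit chosen after seeing the data, 21 of the 50 were lower, all 13 among them, and 28.5% of all genes were called.

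**Figure D2:**
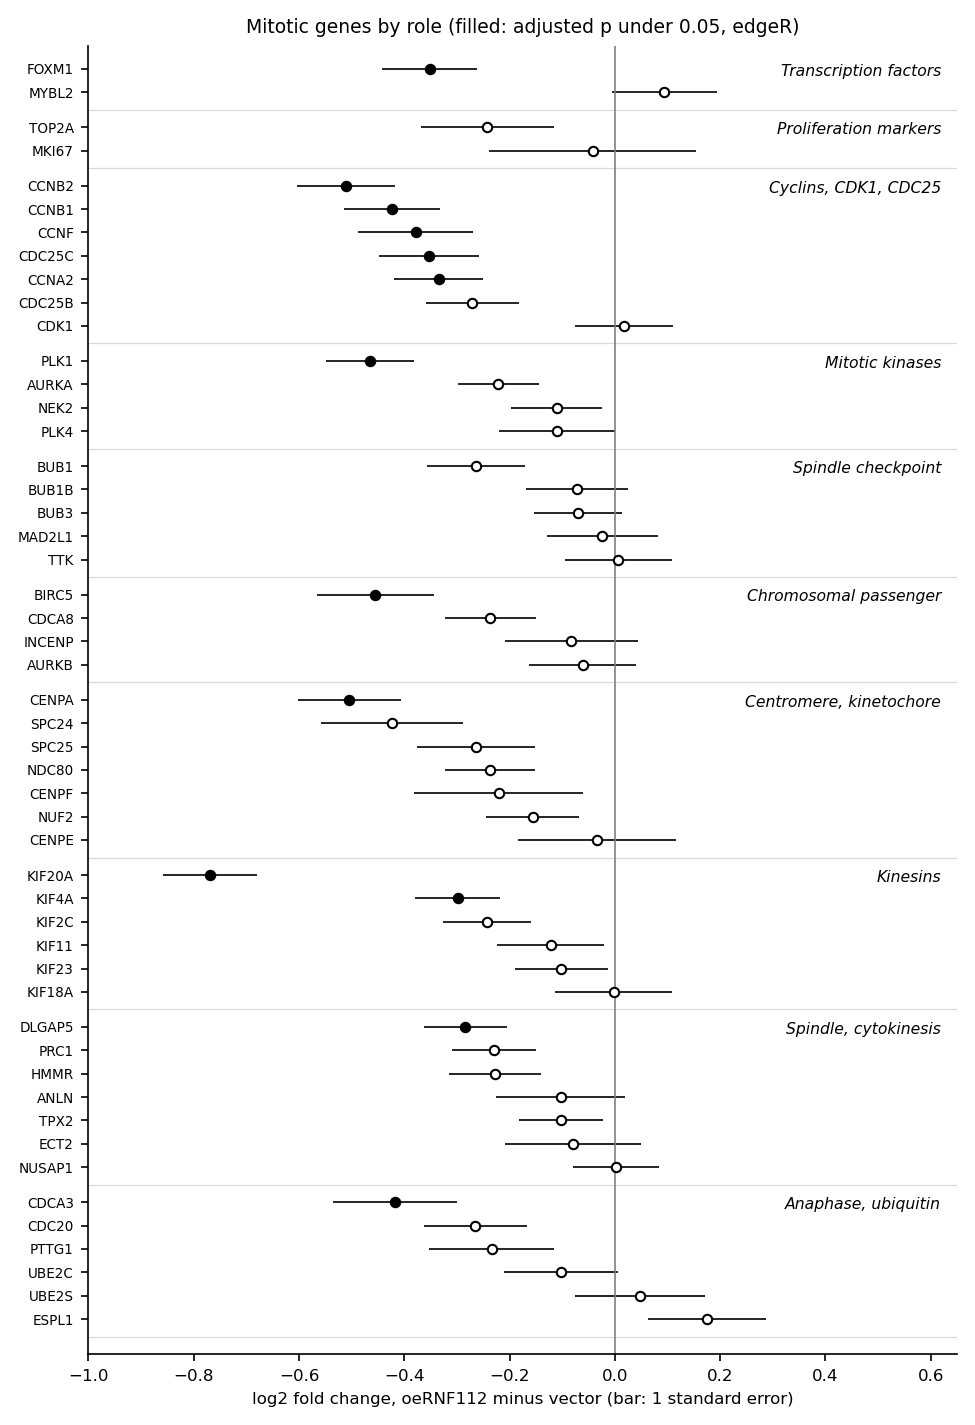
The log2 fold change of each mitotic gene, oeRNF112 minus vector, is plotted by role with 1 standard error (horizontal bar), and filled points have an adjusted p under 0.05. Most points lie left of 0, from -0.77 for KIF20A to 0.18 for ESPL1, and the 13 filled points are all to the left.

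To show the promoter letters that many of these genes share, the windows of RefSeq (build GRCh38.p14, 250 bases before each start and 50 from it on) were searched on both strands for TTTGAA, the core of the CHR, for CCAAT, and for CACGTG, the E-box that MYC and related factors can bind (matches of TTTGAA and CCAAT can share a base, as they do in MKI67). The table held windows for 43 of the 50 genes and not for FOXM1, AURKA, BUB3, TTK, BIRC5, TPX2 and UBE2C. TTTGAA was found in 30 of the 43 genes, CCAAT in 36, at least 2 CCAAT in 22, and CACGTG in 6. Counted by window, since some genes have several starts, TTTGAA stood in 33 of 55 windows of the mitotic genes (60%), in 35% of 117 windows of other mitotic genes, in 15.2% of all 35116 windows and in 1.92% of 52 windows of DNA replication genes. In the same order, CCAAT stood in 74.5%, 53%, 34.6% and 53.8% of these windows and CACGTG in 10.9%, 8.55%, 7.26% and 13.5%. The 8 genes below were called lower and hold TTTGAA, shown in capitals within 30 bases on the strand of the gene. Where a gene has several matches, the one on its own strand that is nearest before the start is shown, and DLGAP5 has another on the opposite strand and another after the start.
CCNB2 (chr15:59105105-59105134, plus strand): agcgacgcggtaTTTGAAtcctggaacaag
CCNF (chr16:2429350-2429379, plus strand): gggccgggtgcgTTTGAAaactggggtggg
CDC25C (chr5:138331817-138331846, minus strand): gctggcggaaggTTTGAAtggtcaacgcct
PLK1 (chr16:23678848-23678877, plus strand): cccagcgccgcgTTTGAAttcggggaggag
CENPA (chr2:26786026-26786055, plus strand): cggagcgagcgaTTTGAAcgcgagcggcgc
KIF4A (chrX:70290058-70290087, plus strand): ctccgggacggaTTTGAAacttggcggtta
DLGAP5 (chr14:55191706-55191735, minus strand): tctcacccatctTTTGAActggcccttcac
CDCA3 (chr12:6851272-6851301, minus strand): cgtggcgggaagTTTGAAactggtaacttc

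Genes that were not called hold the same letters. Of these, 4 are shown for comparison, chosen after their values were seen, again with TTTGAA in capitals.
MKI67 (chr10:128126435-128126464, minus strand): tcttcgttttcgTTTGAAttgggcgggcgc
CDK1 (chr10:60778453-60778482, plus strand): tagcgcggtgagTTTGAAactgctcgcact
KIF18A (chr11:28108149-28108178, minus strand): aagtggcttgggTTTGAAtattgtggttga
ESPL1 (chr12:53268256-53268285, plus strand): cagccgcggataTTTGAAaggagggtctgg

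Called and uncalled genes were found both with and without these letters. For the 30 genes with TTTGAA the median was -0.22 (log2 fold change) and 8 were called, and for the 13 without it was -0.24 and 3 were called. KIF20A, the gene with the deepest fall, has no TTTGAA in its window but 2 CCAAT, both read on the opposite strand and shown in capitals as ATTGG.
KIF20A, first match (chr5:138179006-138179035, plus strand): ttccttacgcggATTGGtagctgcaggctt
KIF20A, second match (chr5:138179033-138179062, plus strand): cttccctatctgATTGGccgaacgaacgca
The 22 genes with at least 2 CCAAT had a median of -0.25 and 7 called, and the 21 with fewer had -0.11 and 4 called. The 6 genes with CACGTG had a median of -0.16 and 2 called (PLK1 and CCNB1), and the 37 without had -0.23 and 9 called. These matches are descriptions of letters in a window and were not tested against the fold changes.

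Among the transcription factors, FOXM1, which drives the G2 and mitotic program, was lower in oeRNF112. It had 203, 227 and 223 CPM in vector and 177, 157 and 179 CPM in oeRNF112, without overlap. Its log2 fold change was -0.35 (standard error, SE, 0.09, adjusted p = 0.0246), or 78.4% of the vector level, and the call held in 2 of the 6 fits that each left out a sample. MYBL2, or B-Myb, which binds the MuvB complex before FOXM1 does, had 174, 162 and 205 CPM in vector and 187, 196 and 195 CPM in oeRNF112. The groups overlapped, and its log2 fold change was 0.09 (SE 0.099, adjusted p = 0.542). The 11 other genes of the MuvB and DREAM complexes, which carry the program on chromatin or hold it silent in resting cells, had a median of -0.05 (log2 fold change). None was called by edgeR, DESeq2 or limma, and 3 had an unadjusted p under 0.05 in edgeR, all lower. By edgeR 18.1% of all genes tested were called, 8.14% lower. In 4 of the 11 all oeRNF112 samples lay below all vector samples, and in 0 they lay above. Over all genes tested these shares were 17.9% and 18.9%.

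The proliferation markers did not pass the test, nor an unadjusted p under 0.05, in edgeR, DESeq2 or limma. MKI67, which encodes the Ki-67 antigen, had a log2 fold change of -0.04 (SE 0.197, adjusted p = 0.906), and its sign was positive with library totals (0.05) and without vector replicate 2 (0.19). TOP2A, the topoisomerase that untangles sister chromatids, had 657, 702 and 514 CPM in vector and 543, 470 and 571 CPM in oeRNF112. Its groups overlapped, with a log2 fold change of -0.24 (adjusted p = 0.212), and it is 5823 bases long. With the trend with gene length removed, TOP2A stood at -0.28 (adjusted p = 0.0359) and MKI67 at -0.14.

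The cyclins, CDK1 and the CDC25 phosphatases, 7 genes in all, held 5 of the 13 called genes. Of these 7, 71.4% were called, against 18.1% of all genes tested. A- and B-type cyclins bind CDK1, and CDC25 phosphatases remove its inhibitory phosphates. CCNB1, the main mitotic cyclin, had 326, 286 and 329 CPM in vector and 246, 236 and 220 CPM in oeRNF112, a log2 fold change of -0.42 (SE 0.091, adjusted p = 0.012). CCNB2, the second B-type cyclin, had 113, 97.2 and 113 CPM in vector and 76.4, 78.7 and 71.8 CPM in oeRNF112. It fell by 0.51 on the log2 scale (SE 0.093, adjusted p = 0.00563), to 70.2% of vector. The values of both genes were separate between the groups, and the call of CCNB1 was lost without vector replicate 1 (adjusted p = 0.0738). CCNA2, the cyclin of S phase and G2, had 92.9, 86.7 and 87.9 CPM in vector and 67.7, 69.4 and 75.1 CPM in oeRNF112, and its log2 fold change was -0.33 (adjusted p = 0.0236). The call of CCNA2 held in 3 of the 6 fits with a sample left out. CCNF, the F-box cyclin of an SCF ubiquitin ligase, had 49.2, 59.3 and 57 CPM in vector and 43.4, 37.8 and 46.2 CPM in oeRNF112. It fell by 0.38 (adjusted p = 0.0396), and this call was lost in each of the 6 fits with a sample left out. CDC25C, a phosphatase that activates CDK1, had 28.6, 27 and 25 CPM in vector and 22, 20.8 and 20.4 CPM in oeRNF112, a log2 fold change of -0.35 (adjusted p = 0.0307). The call of CDC25C held in 2 of these 6 fits.

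CDK1 itself did not pass the test. It had 272, 247 and 262 CPM in vector and 240, 287 and 263 CPM in oeRNF112, with overlap of the groups and a log2 fold change of 0.02 (SE 0.093, adjusted p = 0.919). CDC25B had a log2 fold change of -0.27 and missed the threshold (adjusted p = 0.0595), although its 3 oeRNF112 values lay below its 3 vector values.

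**Figure D3:**
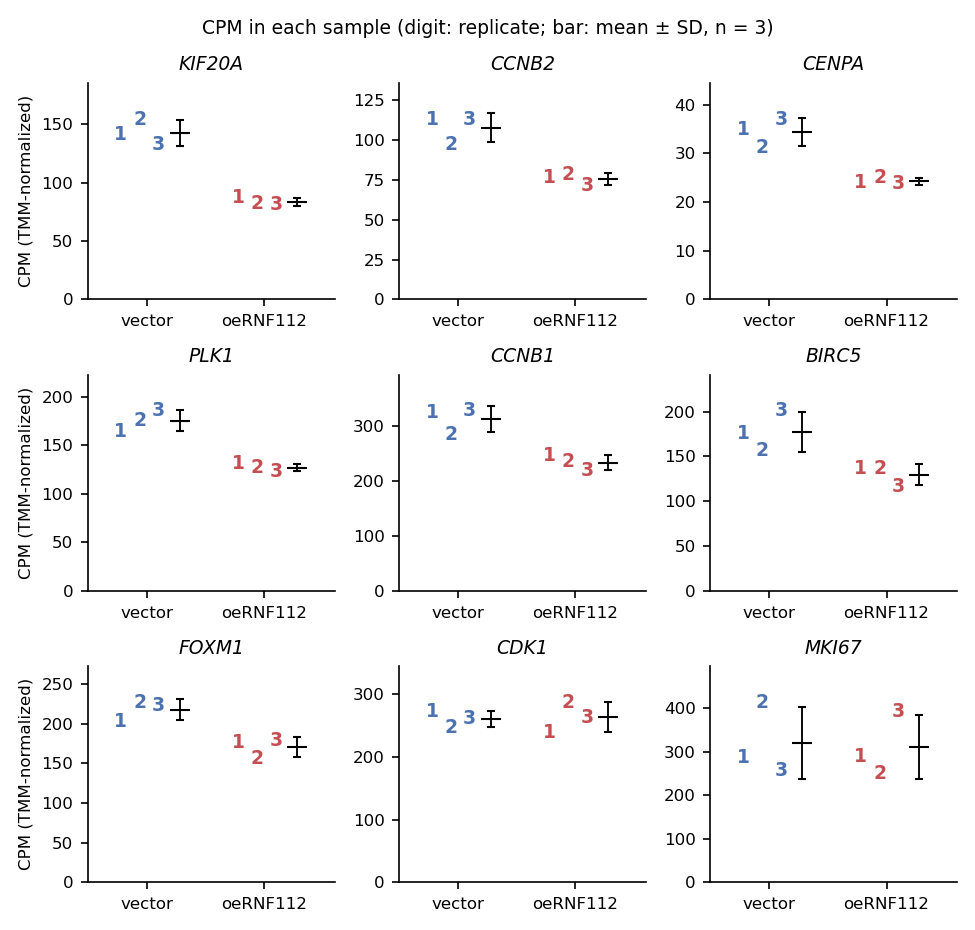
CPM (TMM-normalized) of 9 mitotic genes is shown for each sample, with the digit giving the replicate and the bar the mean and SD of 3 samples, and each axis starting at 0. KIF20A, CCNB2, CENPA, PLK1, CCNB1, BIRC5 and FOXM1 have all oeRNF112 digits below all vector digits, while CDK1 and MKI67 overlap, with MKI67 at 414 CPM in vector replicate 2 and 393 CPM in oeRNF112 replicate 3.

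PLK1 was the called gene among the 4 kinases of mitosis and the centrosome (25%, against 18.1% of all genes tested). This Polo-like kinase, which acts from mitotic entry to cytokinesis, had 165, 176 and 186 CPM in vector and 131, 127 and 123 CPM in oeRNF112. Each oeRNF112 value lay well below the lowest vector value, with a log2 fold change of -0.46 (SE 0.083, adjusted p = 0.00528), or 72.5% of vector. AURKA, the spindle pole Aurora kinase, had 206, 201 and 206 CPM in vector and 182, 171 and 173 CPM in oeRNF112. Its groups did not overlap, but at a log2 fold change of -0.22 (adjusted p = 0.0745) it missed the threshold. PLK4, which starts centriole duplication, and NEK2, which acts in centrosome separation, both had -0.11 and overlapping groups (adjusted p of 0.518 and 0.404).

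None of the 5 genes of the spindle assembly checkpoint was called by edgeR, DESeq2 or limma, and 1, BUB1, had an unadjusted p under 0.05 in edgeR. Over all genes tested 18.1% were called, 8.14% lower, and 5 genes are too few to be set apart from these shares. BUB1, the kinase that brings the checkpoint to kinetochores, had 146, 145 and 124 CPM in vector and 114, 111 and 121 CPM in oeRNF112, without overlap, and its log2 fold change was -0.26 (adjusted p = 0.0773). It passed the threshold without vector replicate 3 (adjusted p = 0.0347). TTK, the kinase also known as MPS1, had 63.6, 60.3 and 53.9 CPM in vector and 53.7, 61.5 and 63.4 CPM in oeRNF112, and its log2 fold change was 0.01 (SE 0.102). BUB1B, BUB3 and MAD2L1, which build the inhibitor of CDC20, had -0.07, -0.07 and -0.02, each with overlapping groups.

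The chromosomal passenger complex corrects wrong attachments of chromosomes and later acts in cytokinesis. Of its 4 genes, 1 was called (25%, against 18.1% of all genes tested). BIRC5, or survivin, had 175, 157 and 201 CPM in vector and 136, 136 and 116 CPM in oeRNF112. It fell by 0.46 on the log2 scale (SE 0.111, adjusted p = 0.0204), to 72.9% of vector, and kept the call in 2 of the 6 fits with a sample left out. AURKB, the kinase of the complex, had 94.3, 89.8 and 109 CPM in vector and 94.3, 100.1 and 86.9 CPM in oeRNF112. These overlapped, with a log2 fold change of -0.06 (SE 0.101, adjusted p = 0.706) that was 0.03 with library totals. The scaffold INCENP had -0.08 with overlapping groups. CDCA8, or borealin, had -0.24 (adjusted p = 0.085) without overlap.

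At the centromere and kinetochore, all 7 fitted values were below 0 and CENPA was the called gene (14.3%, against 18.1% of all tested). CENPA, the histone H3 variant that marks the centromere, had 34.9, 31.3 and 37 CPM in vector and 24.1, 25 and 23.7 CPM in oeRNF112. Its oeRNF112 values were tightly grouped below all vector values, and its log2 fold change was -0.50 (SE 0.097, adjusted p = 0.00737). The 4 subunits of the NDC80 complex, which binds microtubules, had log2 fold changes of -0.42 for SPC24, -0.26 for SPC25, -0.24 for NDC80 and -0.16 for NUF2, with adjusted p of 0.0554, 0.132, 0.0835 and 0.247. The long genes CENPE and CENPF, a kinetochore motor and a large kinetochore and matrix protein, varied more between replicates. CENPF had 286, 336 and 225 CPM in vector and 242, 199 and 286 CPM in oeRNF112, and its groups overlapped, with a log2 fold change of -0.22 (SE 0.161, adjusted p = 0.37). With the trend with gene length removed, it stood at -0.31 (adjusted p = 0.0189). CENPE had 72.2, 81.5 and 58.2 CPM in vector and 64.1, 59.7 and 83.1 CPM in oeRNF112, and its log2 fold change was -0.03 (SE 0.15).

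The kinesins held the deepest fall of the 50 genes. KIF20A, also called MKLP2, which carries the passenger complex to the central spindle at the end of mitosis, had 141, 155 and 132 CPM in vector and 87.5, 82.4 and 81.4 CPM in oeRNF112. The highest oeRNF112 value lay far below the lowest vector value. Its log2 fold change was -0.77 (SE 0.089, adjusted p = 0.000648), or 58.7% of vector, and the call held in all 16 alternatives, from -0.82 to -0.65. KIF4A, a chromosome arm kinesin that also shapes the central spindle, had 139, 138 and 138 CPM in vector and 119, 107 and 112 CPM in oeRNF112, a log2 fold change of -0.30 (adjusted p = 0.0302) that held in 1 of the 6 fits with a sample left out. KIF2C, a microtubule depolymerase at the centromere, had -0.24 (adjusted p = 0.0732) without overlap. KIF11, the motor that pushes the spindle poles apart, had 455, 465 and 388 CPM in vector and 398, 370 and 434 CPM in oeRNF112, with overlap and a log2 fold change of -0.12 (adjusted p = 0.433). KIF23, the partner motor of the central spindle, and KIF18A, which limits chromosome movement, had -0.10 and -0.003, with overlapping groups. KIF18A had 56, 53.4 and 45.4 CPM in vector and 48.2, 48.8 and 57.5 CPM in oeRNF112.

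Of the 7 genes of spindle assembly and cytokinesis, DLGAP5 was called (14.3%, against 18.1% of all genes tested). This microtubule-binding protein, also known as HURP, had 149, 137 and 141 CPM in vector and 117, 117 and 117 CPM in oeRNF112. Its log2 fold change was -0.28 (SE 0.078, adjusted p = 0.0332), and the call held in 1 of the 6 fits with a sample left out. TPX2, which activates AURKA on the spindle, had 493, 514 and 509 CPM in vector and 486, 451 and 474 CPM in oeRNF112, narrowly separate, with a log2 fold change of -0.10 (SE 0.081, adjusted p = 0.406). NUSAP1, which bundles spindle microtubules, had 184, 176 and 169 CPM in vector and 172, 186 and 171 CPM in oeRNF112, and its log2 fold change was 0.002 (SE 0.082). PRC1, the cross-linker of the central spindle, and HMMR each had -0.23 without overlap (adjusted p of 0.0722 and 0.0977). ANLN and ECT2, which build and position the contractile ring, had -0.10 and -0.08 with overlapping groups.

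Among the 6 genes of anaphase and of ubiquitin transfer, CDCA3 was called (16.7%, against 18.1% of all genes tested). CDCA3, described as an F-box-like trigger of mitotic entry, had 46.5, 46 and 60.1 CPM in vector and 40.3, 37.1 and 36.8 CPM in oeRNF112. It fell by 0.42 (SE 0.118, adjusted p = 0.0358), and the call held in 1 of the 6 fits with a sample left out. CDC20, the activator of the anaphase-promoting complex, had 229, 214 and 265 CPM in vector and 190, 205 and 194 CPM in oeRNF112, without overlap, and a log2 fold change of -0.26 (adjusted p = 0.0865). ESPL1, or separase, the protease that cuts cohesin, had 52.5, 66.8 and 60.3 CPM in vector and 67.4, 61.4 and 74 CPM in oeRNF112. Its groups overlapped, and its log2 fold change of 0.18 (SE 0.112, adjusted p = 0.305) was the highest of the 50. PTTG1, or securin, its inhibitor, had -0.23 (adjusted p = 0.198). UBE2C and UBE2S, the ubiquitin-conjugating enzymes of the anaphase-promoting complex, had -0.10 and 0.05 with overlapping groups.

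**Figure D4:**
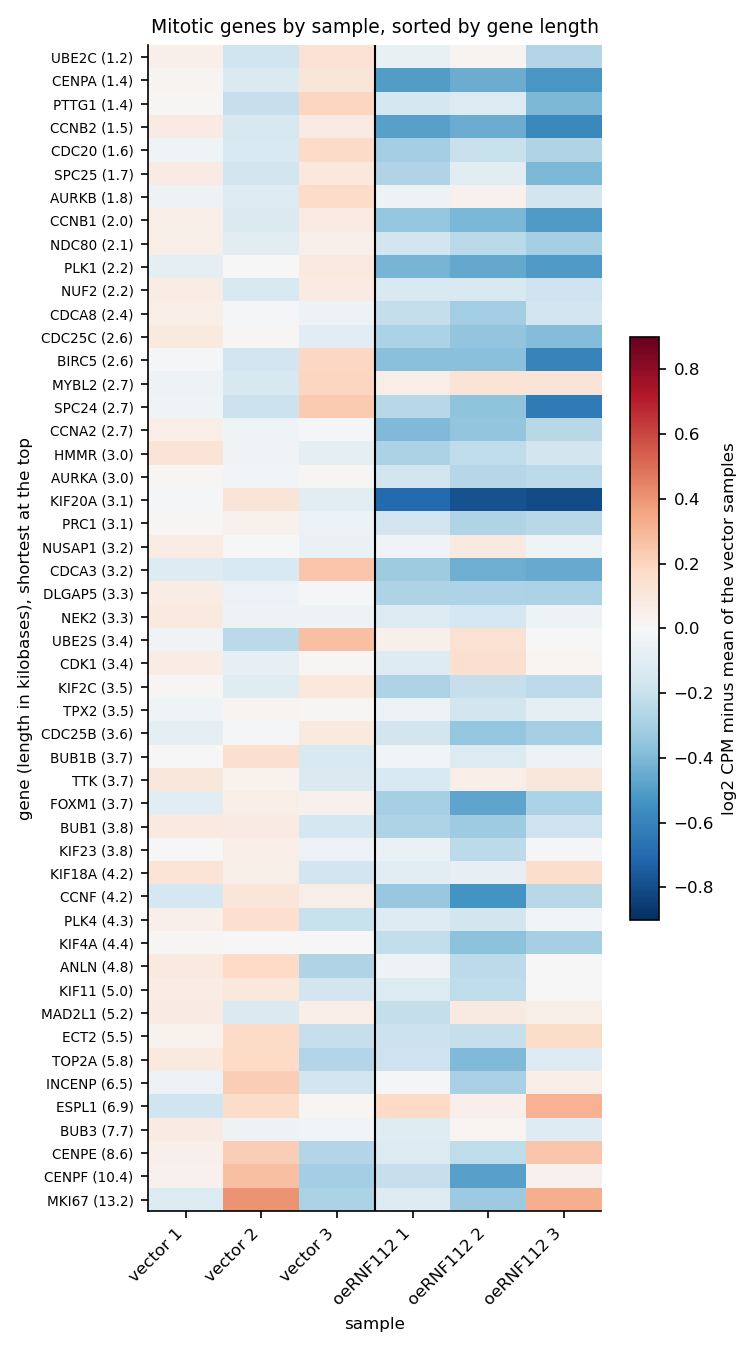
Each row is 1 mitotic gene with its length in kilobases, shortest at the top, each column 1 sample, and the color gives log2 CPM minus the mean of the vector samples. The oeRNF112 columns are mostly blue in the upper rows, with KIF20A darkest, while in the bottom rows MKI67, CENPF and CENPE are red in vector replicate 2 and blue in vector replicate 3.

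The levels themselves covered a wide range. By mean RPKM in vector, which allows genes of different length to be compared, UBE2C was highest at 165 ± 15 (SD, n = 3), followed by CCNB1 at 149 ± 8.87, TPX2 at 139 ± 5.05, CDC20 at 138 ± 13.7 and PTTG1 at 138 ± 17, and the intervals of mean ± SD of neighbours in this order overlap. PLK4 was lowest at 7.31 ± 1, next to CENPE at 7.95 ± 1.44 and ESPL1 at 8.43 ± 1.14, and these intervals overlap too. The 13 called genes ranged from 10.1 RPKM for CDC25C to 149 RPKM for CCNB1.

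Genes with related roles outside the 50 were read from the same fit. Of 109 other mitotic genes, 14 were lower and 2 higher in oeRNF112 (14.7% called, against 18.1% of all genes tested). Over all genes tested, 8.14% were lower and 9.97% higher. In 31 of the 109 all oeRNF112 samples lay below all vector samples, and in 10 they lay above. Over all genes tested these shares were 17.9% and 18.9%. The log2 fold changes of the 109 had a median of -0.08. Of 34 other kinetochore and centromere genes, 4 were lower, with PMF1, a subunit of the MIS12 complex, at -0.64 (adjusted p = 0.0114) and OIP5 at -0.52, and MAD1L1, which anchors the checkpoint at kinetochores, rose by 0.39 (adjusted p = 0.0354). Of 27 other kinesin, spindle and cytokinesis genes, 4 were lower, among them PSRC1 (-0.50), SPAG5 (-0.29) and FAM83D (-0.27). Of 19 condensin and cohesin genes, the condensin subunits NCAPH (-0.35) and NCAPD2 (-0.31) were lower. Of 16 genes of the anaphase-promoting complex and its regulators, 3 were lower, with ANAPC15 at -0.61 and ANAPC2 at -0.52, and the conjugating enzyme UBE2D1 rose by 0.49. LMNB1, a lamin of the nuclear envelope, was the called gene of 13 entry kinases, centriole and control genes, at -0.54 (adjusted p = 0.00291), and the median of that list was 0.09. In the order given, 14.7%, 14.8%, 10.5%, 25% and 7.69% of the genes in these smaller lists were called.

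The 48 DNA replication genes, whose products act in S phase, gave 14 lower and 0 higher genes (29.2% called, against 18.1% of all genes tested). The log2 fold changes of the 48 had a median of -0.10. At an unadjusted p under 0.05, 21 were lower and 3 higher in edgeR, and after adjustment DESeq2 called 15 lower and 0 higher and limma 8 lower and 2 higher. The smallest p-values belonged to MCM5 (-0.49), TIMELESS (-0.53) and MCM6 (-0.40), with adjusted p of 0.00639, 0.00687 and 0.00815. Of the 15 genes named from these lists, LMNB1, ANAPC2, MCM5 and TIMELESS kept their call with each sample left out in turn, and FAM83D, SPAG5 and NCAPD2 lost it in each of the 6 fits. The calls lost were 11 of 15 without vector replicate 1, 4 without vector replicate 2, 4 without vector replicate 3, and 7, 6 and 6 without oeRNF112 replicates 1, 2 and 3. MAD1L1 and UBE2D1, the higher genes, each lost the call in 4 of the 6 fits. No test compared these lists with the 50 mitotic genes, and all of them rest on the same 6 samples.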

How the data were processed

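RNA-seq counts and RPKM values of 3 vector and 3 oeRNF112 samples of T24 cells were used, grouped by the sample titles. The submitters' processing notes name Trimmomatic 0.36, featureCounts, Subread 1.5.1 and GRCh38, and the annotation is not given in the sources used here. The authors deposited counts, the unnormalized number of reads per gene symbol, and RPKM values. For 16237 of 16237 genes with counts in all samples, the deposited RPKM could be rebuilt from the counts, the sum of the column and 1 gene length (within 0.1%), and this length was used here. No row lacked a gene name, and no 2 samples were identical. The depth of 40029547 to 41259569 counts per sample allows up to 3 counts (a CPM of 0.0727 to 0.0749) behind a count of 0, for counting error only.

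The counts were tested with edgeR 4.0.16 in R 4.3.3 (filterByExpr, TMM, glmQLFit and glmQLFTest, group as the only term). Standard errors are the absolute log2 fold change divided by the square root of F. The labels do not state that the replicate numbers mark pairs, so no block entered the main fit. Same-numbered samples deviated in opposite directions (correlations of -0.181, -0.539 and -0.454), which cannot show whether cultures were paired. Alternatives were DESeq2 1.42.0, other size factors and filters, a replicate block, each sample left out, and limma 3.58.1 on log2(RPKM + 1) or log2(RPKM + 0.1). The fit with a lowess trend on gene length (span 0.3) was added after the data had been seen. Scripts were tested on simulated data. The members and gene lists were chosen with earlier results of these data known. Named with values by rule were RNF112, every mitotic gene with an adjusted p under 0.05, 16 fixed genes, the highest and lowest gene by fold change of each role, and up to 3 genes of each other list. Other genes were named after their values were seen. The limit of 4500 bases for long genes was also set afterwards. The result of 1 further marker list is not reported here.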

Additional observations from a re-analysis of the deposited data

How the results depend on the processing

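The mitotic genes called numbered 6 with library totals, 5 with limma on log2(RPKM + 1) or log2(RPKM + 0.1), 6 with limma where the mean RPKM was 1 or more, and 21 with the gene length trend removed (all genes, 4120). Their median log2 fold change was -0.130, -0.128, -0.130, -0.128 and -0.179 in these fits, and each of the called mitotic genes was lower. Minus the median of all genes in the same fit, these medians were -0.226, -0.137, -0.184, -0.188 and -0.173, against -0.227 in the main fit. The deposited RPKM was divided by the sum of the column, so the limma fits carry no TMM factors. In the same order, 18.5%, 7.61%, 7.65%, 18.4% and 28.5% of all genes tested were called. With the replicate block, 876 genes differed (6.06% of all tested) and 1 mitotic gene, KIF20A, kept its call. The labels do not state that the numbers mark pairs. DESeq2 called 18 mitotic genes, all 13 among them, and 22.4% of all genes tested. When each sample was left out, the mitotic genes called went from 4 to 18, all genes called from 1061 to 3387 and the median from -0.222 to -0.171. The cause of these changes was not tested.

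Under at least 1 alternative 13 of the 50 mitotic genes changed sign, MKI67, CDK1, TTK, AURKB, CENPE, KIF18A, NUSAP1, BUB1B, BUB3, MAD2L1, INCENP, ECT2 and UBE2S, and none of these was called. With library totals 9 fewer were fitted below 0, and MKI67, AURKB, CENPE and KIF18A were at 0.0509, 0.0325, 0.0599 and 0.0918. In the limma fits with a pseudocount of 1, with either filter, they were at 0.0537, 0.0343, 0.0519 and 0.0850, and with 0.1 at 0.0559, 0.0349, 0.0577 and 0.0912. NUSAP1 was at -0.000758 with DESeq2-type size factors and -0.000767 with DESeq2, KIF18A at 0.00567 with at least 10 counts in every sample, and AURKB at 0.0141 with the length trend removed. With a sample left out, MKI67 went from -0.247 to 0.187, CDK1 from -0.0381 to 0.0804, TTK from -0.0570 to 0.0752, AURKB from -0.122 to 0.0269, CENPE from -0.190 to 0.0793, KIF18A from -0.0888 to 0.0726 and NUSAP1 from -0.0262 to 0.0476.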
